A study of Homo sapiens with 8 samples.

Results

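The response of A549 cells in monolayer culture to TNF and TGFβ was taken from 4 of the 8 arrays of the series, 2 of treated and 2 of control monolayers, over the 54613 probe sets of the array that are not Affymetrix controls. The direction is treated minus control on log2 values, in which 1 unit is a 2-fold change, and this difference is called the log2 change of a gene. A549 is a human lung adenocarcinoma line with an epithelial phenotype. The monolayers (2D) were kept in medium with 2% serum and received either vehicle or TNF (10 ng/ml) together with TGFβ (2 ng/ml) for 48 h, repeated once to give 2 rounds, and spheroids (3D) were treated in the same way. Both cytokines were given together in every treated culture, so their separate effects cannot be told apart. The study asked how chromatin marks are remodelled when these cytokines move the cells from an epithelial to a mesenchymal state. Its chromatin work was done in spheroids, and expression arrays were run on both kinds of culture. Each group was measured on 2 Affymetrix U133 plus 2.0 arrays. Whether the 2 arrays of a group came from separate cultures is unclear, since the methods speak of technical duplicates and the design text of biological replicates. Each p-value may therefore reflect technical spread alone.

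TNF binds receptors that activate the IκB kinases, which releases NF-κB dimers to the nucleus, where they switch on chemokines, survival genes and their own inhibitors. TGFβ binds serine/threonine kinase receptors that phosphorylate SMAD proteins, and SMAD complexes act on feedback inhibitors, on matrix genes and, in many epithelial cells, on the transcription factors of the epithelial-mesenchymal transition (EMT). Interferon-stimulated genes are antiviral and antigen-presenting genes that STAT and IRF factors switch on through a promoter element called the ISRE.

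The deposited values lie between 2.23 and 16.2, and 34.9% to 35.8% of the probe sets of a monolayer array were at the lowest value of the table. A group is called near background here when it lay below the median of its array on both arrays. The 54613 probe sets give 19775 genes with a probe set of their own, of which 12642 were above background in at least 1 monolayer group. Each gene is represented by its probe set with the highest mean over the 8 arrays. Replicate arrays differed by a median of 0.147 log2 units in controls and 0.145 in treated cultures over 12313 brighter genes. Of 14 markers of an epithelial lung line, 13 were above background, and their summed level was 17.51 to 17.57 in controls and 17.21 to 17.28 in treated cultures on the log2 scale. Of markers of other cells, 2 of 10 fibroblast, 4 of 10 endothelial, 5 of 12 leukocyte and 3 of 5 red blood cell markers were above background. The summed leukocyte markers were at 9.03 to 9.95 in controls and 9.57 to 10.09 in treated cultures. PTPRC, VWF and PDGFRB, markers of leukocytes, endothelium and fibroblasts, were near background on the monolayer arrays. The leukocyte markers CD14, ITGAM, ITGAX, LYZ and CD79A were above it. ITGAM was at 6.61 and 6.43 in controls and at 7.65 and 8.03 in treated monolayers (limma adjusted p = 0.342). LYZ was at 6.22 and 4.17 in controls and at 3.72 and 3.13 in treated monolayers (limma adjusted p = 0.812). In bulk RNA, a change in the number of responding cells and a change in RNA per cell cannot be told apart.

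In treated monolayers 39 genes changed at an adjusted p under 0.05 in limma. Of all 19775 genes, 24 (0.121%) rose and 15 (0.0759%) fell. Of these 39 genes, 17 changed at least 2-fold, and 2124 genes had an unadjusted p under 0.05. A count of size was therefore set beside the test. At least 2-fold differences without overlap between the groups were seen in 220 genes on the higher side (1.11%) and 146 on the lower side (0.738%), 17 of which also passed the test. This count of size is a description with no p. It was added after the values had been seen, as were the genes that it names. The number of calls depended strongly on the fit. It was 3 higher and 3 lower when the 4 monolayer arrays were fitted alone, and 124 higher and 108 lower after probe sets near background were left out. With each array left out in turn it ran from 8 to 363 higher, the most without 2D treated replicate 2, and from 6 to 286 lower, the most without 2D control replicate 2. Over probe sets, 45 rose and 55 fell, of which 23 do not name 1 gene in the reference table used here.

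**Figure D1:**
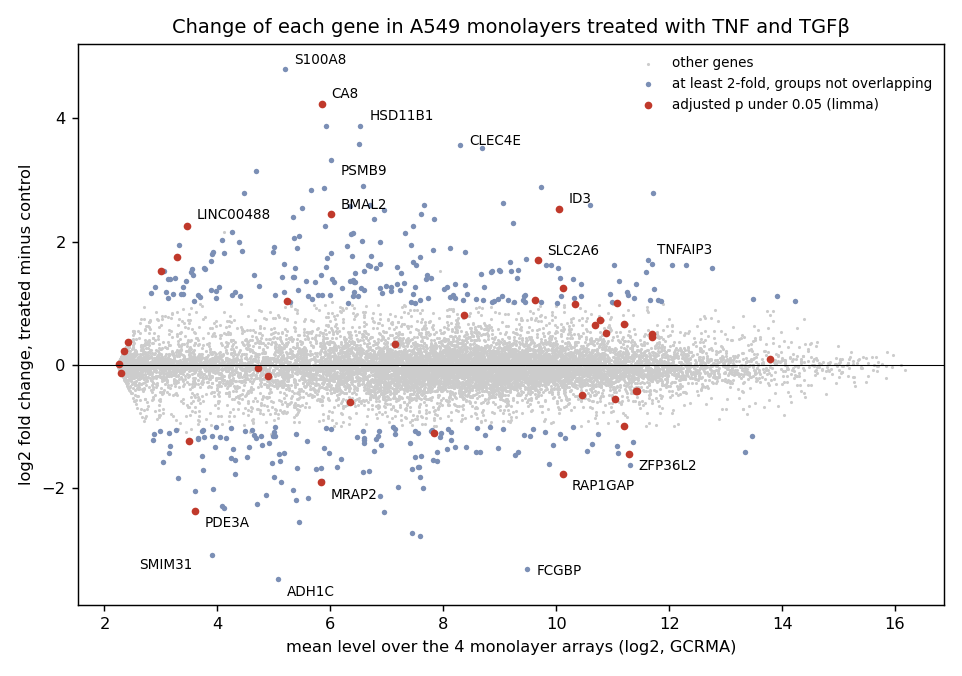
Log2 fold change of each gene (treated minus control, vertical axis) against its mean level on the 4 monolayer arrays (log2, horizontal axis). Red points passed the limma test (39 genes), blue points were at least 2-fold apart without overlap but did not pass, and grey points are the other genes. CA8 is the highest red point, and several larger or similar differences, such as those of S100A8 and FCGBP, are blue. The standard errors of these 2 genes were 0.98 and 0.38, against 0.23 for CA8. They use the spread within the groups of all 8 arrays.

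Among named genes that passed, the largest log2 change was that of CA8, a carbonic anhydrase-related protein without the catalytic activity of its family. Its level was 3.41 and 4.05 on the control arrays and 7.86 and 8.08 on the treated arrays. The groups were far apart, and the rise was 18.9-fold, a log2 change of 4.24 (standard error 0.23, limma adjusted p = 0.0285). ID3, an inhibitor of helix-loop-helix transcription factors and a known target of TGFβ family signals, stood at 8.76 and 8.81 in controls and at 11.36 and 11.28 in treated monolayers. Both arrays of each group were close to each other, and ID3 rose 5.8-fold (log2 fold change 2.54, standard error 0.16, limma adjusted p = 0.0417). BMAL2, a transcription factor of the circadian clock family, was at 4.85 and 4.73 in controls and at 7.34 and 7.14 in treated monolayers, a rise of 5.46-fold (limma adjusted p = 0.0441). SLC2A6, a member of the glucose transporter family, was at 8.87 and 8.78 in controls and at 10.56 and 10.49 in treated monolayers, and rose 3.24-fold (limma adjusted p = 0.0123).

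DSE, the epimerase that makes dermatan sulphate, rose 2.36-fold (limma adjusted p = 0.0498). PDGFRL, a secreted relative of the PDGF receptors, rose 2.09-fold (limma adjusted p = 0.023), TRIM29 2.06-fold (adjusted p = 0.0476) and BTG3, of an antiproliferative family, 2.0-fold (adjusted p = 0.0332). STK17A, a kinase of the death-associated family, rose 1.99-fold with a very small standard error of 0.02 (limma adjusted p = 0.00154). CALCB, the β form of calcitonin gene-related peptide, and the noncoding RNA LINC00488 were near background in controls. They were at least 2.49-fold and at least 4.4-fold higher in treated monolayers (limma adjusted p = 0.00111 and 0.00154), and POM121L9P, a pseudogene related to a nuclear pore gene, rose 3.36-fold from close to background (adjusted p = 0.00849). POM121L9P has near-identical relatives that its probe set may not tell apart, so its value is uncertain. PTGES3, a prostaglandin synthase and cochaperone, had a log2 change of 0.09 (limma adjusted p = 0.0166), the smallest of the rises named here. Its call depended on the scaling and held under 8 of 19 other settings. It ended after quantile normalization and with array medians subtracted (limma adjusted p = 0.564 with the latter).

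The largest fall among the genes that passed was that of PDE3A, a phosphodiesterase that breaks down cyclic AMP. It stood at 4.75 and 4.85 in controls and near background at 2.42 and 2.43 in treated monolayers. The fall was at least 5.15-fold, with a log2 change of −2.37 (standard error 0.03, limma adjusted p = 0.000751). RAP1GAP, which inactivates the small GTPase RAP1, was a bright gene at 11.03 and 10.98 in controls and at 9.23 and 9.24 in treated monolayers, and it fell 3.41-fold (limma adjusted p = 0.00684). ZFP36L2, a zinc finger protein that directs messenger RNA to decay, was at 12.15 and 11.88 in controls and at 10.54 and 10.59 in treated monolayers, and fell 2.73-fold (limma adjusted p = 0.045). It was the single member of 24 immediate early genes and MAP kinase phosphatases that passed the test, and the median of that list was −0.06.

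MRAP2, an accessory protein of melanocortin receptors, fell 3.75-fold (limma adjusted p = 0.0274), FRY 2.36-fold (adjusted p = 0.0083) and ASRGL1, an asparaginase, 2.16-fold (adjusted p = 0.00485). Smaller falls of bright genes were those of PRKCA, protein kinase Cα (1.99-fold, limma adjusted p = 0.0447), PLEKHG2 (1.51-fold, adjusted p = 0.0123), ZKSCAN1 (1.47-fold, adjusted p = 0.0476) and the membrane mucin MUC13 (1.4-fold, adjusted p = 0.0455). UBA1, the main activating enzyme of ubiquitin, and EZR, which ties actin to the cell membrane, each fell 1.35-fold (limma adjusted p = 0.0188 and 0.00849). On the probe set with the largest change of the same gene, the falls of ZFP36L2, ASRGL1, PRKCA, MUC13 and EZR did not pass. Their limma adjusted p were 0.236, 0.422, 0.194, 0.153 and 0.533. Among these 5 genes the direction was the same on that probe set. A further probe set of ZFP36L2 passed with −0.98 (limma adjusted p = 0.0496).

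The call of PRKCA held under 6 of 19 other settings, those of TNIP1, TRIM29, ZKSCAN1, MUC13 and TNFRSF10B under 7, and those of STK17A, LINC00488, CALCB and PDE3A under 17. Without 2D treated replicate 1, the calls of TRIM29, DSE, BMAL2, ID3, ZFP36L2, PRKCA, ZKSCAN1 and TNIP1 ended (limma adjusted p up to 0.0742), and without either 3D control array 18 of the 27 calls named here ended (adjusted p up to 0.174), although those arrays enter only through the shared estimate of spread.

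The NF-κB arm was described by 4 lists of its parts. Of 9 NF-κB subunits and IκB proteins, none passed the test, but 8 were higher in both treated arrays than in both control arrays and none lower, with a median log2 change of 0.82 beside 0 over all genes. Among all genes above background, 19.9% were higher without overlap and 25.0% lower. RELB, a subunit of the noncanonical NF-κB pathway, was at 5.83 and 5.86 in controls and at 7.84 and 7.38 in treated monolayers, a log2 change of 1.76 (limma adjusted p = 0.0866). NFKB2, its partner, was at 8.78 and 8.97 in controls and at 10.08 and 9.90 in treated monolayers, and its log2 fold change was 1.12 (limma adjusted p = 0.131). A second probe set of NFKB2 passed with 1.55 (limma adjusted p = 0.0332). The IκB genes NFKBIE and NFKBIA, whose proteins hold NF-κB in the cytoplasm, had log2 changes of 1.19 and 0.79 (limma adjusted p = 0.293 and 0.198), and RELA and REL had values of 0.23 and −0.02. The arrays thus separated the groups for every member of this list but REL, by small steps for RELA and NFKBIB.

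Of 19 feedback and survival targets of NF-κB, TNIP1 passed. TNIP1, a ubiquitin-binding partner of A20, was at 10.80 and 10.94 in controls and at 11.53 and 11.56 in treated monolayers and rose 1.59-fold (limma adjusted p = 0.0498). Another 4 members were at least 2-fold higher without overlap, beside 1.11% of all genes, and the list had a median of 0.38. TNFAIP3, which encodes A20 itself, the ubiquitin-editing enzyme that ends the TNF signal, stood at 10.87 and 10.68 in controls and at 12.51 and 12.45 in treated monolayers. The 4 values fall into 2 tight pairs 1.70 log2 units apart (standard error 0.15, limma adjusted p = 0.0685), and the second probe set of TNFAIP3 passed (log2 fold change 1.93, adjusted p = 0.0158). BCL2A1, an antiapoptotic BCL2 relative, was at 10.26 and 10.15 in controls and at 11.84 and 11.81 in treated monolayers (log2 fold change 1.62, limma adjusted p = 0.0562). TNIP3 and TNFAIP2 had log2 changes of 1.60 and 1.05 (limma adjusted p = 0.231 and 0.106). SOD2, the mitochondrial superoxide dismutase, had 0.84 on the 1 probe set that names it alone (limma adjusted p = 0.505). Probe sets that name several genes were not used for it. Without the control array 1, 5 members were at least 2-fold higher, and without any other monolayer array 4.

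Of 23 TNF receptors, adaptors and kinases, TNFRSF10B passed and 16 were higher without overlap against 4 lower. Among all genes above background those shares were 19.9% and 25.0%. TNFRSF10B, a receptor for the death ligand TRAIL, rose 1.41-fold from 11.45 and 11.44 to 11.89 and 11.99 (limma adjusted p = 0.0443). TNFRSF9, the costimulatory receptor CD137, had a log2 change of 1.62 with both treated arrays above both control arrays (limma adjusted p = 0.155). The gene TNF itself was at the lowest value on all 4 monolayer arrays. Chemokine and cytokine genes went past 2-fold in a minority. None of 18 CXC and CC chemokines passed, and 3 were at least 2-fold higher, beside 1.11% of all genes. The median was 0.02, with 11 of the 18 above background. CXCL8 and CXCL1, which attract neutrophils, were already among the brightest genes in controls, and CXCL1 was at 13.17 and 12.73 in controls and at 14.09 and 13.96 in treated monolayers (log2 fold change 1.07, limma adjusted p = 0.183). CX3CL1, fractalkine, had a log2 change of 1.53 (limma adjusted p = 0.135), CXCL8 0.74 (0.206) and CCL2 0.71 (0.612). CCL5 depended on 1 array, with 3.25 and 3.18 in controls and 6.27 and 3.79 in treated monolayers.

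Of 25 interleukin, IL6 family and colony stimulating factor genes none passed and 4 were at least 2-fold higher, beside 1.11% of all genes (median 0.22). CSF1, the growth factor of macrophages, was at 6.88 and 6.91 in controls and at 8.99 and 8.51 in treated monolayers, a log2 change of 1.86 (limma adjusted p = 0.131), and another probe set of CSF1 passed with 1.85 (adjusted p = 0.0441). IL32, a proinflammatory cytokine, had a log2 change of 1.71 (limma adjusted p = 0.131) and IL6 of 1.57 from close to background (adjusted p = 0.675). None of 13 cytokine-induced adhesion receptors passed or was 2-fold apart. ICAM1, a classical TNF target, was at 4.14 on both control arrays and on treated array 1, at 4.13 on treated array 2 and at 4.14 on both 3D control arrays. With the same reading on these arrays, no response or lack of one is read from this probe set.

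**Figure D2:**
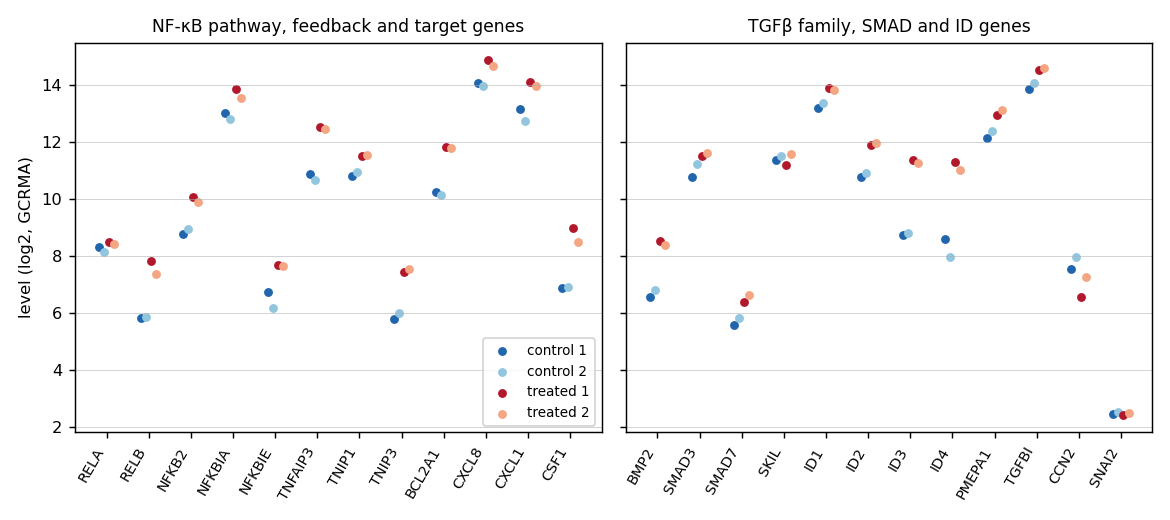
Level (log2) of 12 genes of the NF-κB pathway (left) and of 12 genes of the TGFβ pathway (right) on each of the 4 monolayer arrays. Blue points are the control arrays and red or orange points the treated arrays. TNFAIP3, RELB, TNIP3 and BCL2A1 and, on the right, ID2, ID3 and ID4 show both treated arrays clearly above both control arrays, whereas SKIL and SNAI2 do not.

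Promoter sequences are shown for 3 genes of this arm because they hold the short motif that NF-κB binds. The 250 bases before each RefSeq transcription start were searched (GRCh38.p14, 35116 promoters of 27305 genes) for GGANTTTCC, a κB core, on both strands, where N is any base. It was found in 1.45% of all promoters. Of 7 matched NF-κB subunit and IκB genes, 6 held it in at least 1 promoter, as did 8 of 14 matched chemokine genes and 3 of 18 matched feedback and survival genes. Over all genes measured on the arrays that share was 2%. Since lists of this kind hold genes known for NF-κB control, their counts describe the lists and not the response. Among genes at least 2-fold higher in treated monolayers 13 of 161 held the motif, and among those at least 2-fold lower 2 of 116. Capitals mark the match in the stretches of 120 bases below, which lie at chr6:137867101-137867220 (plus strand), chr5:151081047-151081166 (minus strand) and chr4:73869224-73869343 (plus strand).
TNFAIP3: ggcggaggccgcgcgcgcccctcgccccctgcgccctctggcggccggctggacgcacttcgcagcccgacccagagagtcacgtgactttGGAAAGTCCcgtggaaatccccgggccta
TNIP1: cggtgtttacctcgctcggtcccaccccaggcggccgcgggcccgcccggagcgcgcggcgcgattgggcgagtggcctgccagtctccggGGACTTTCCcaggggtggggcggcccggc
CXCL1: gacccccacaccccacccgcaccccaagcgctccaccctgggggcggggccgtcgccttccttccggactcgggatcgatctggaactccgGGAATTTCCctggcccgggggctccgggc
TNFAIP3 carries the motif on the opposite strand and the other genes on the strand shown. TNIP1 rose, and TNFAIP3 passed on its second probe set. A match is a description of letters and does not show binding.

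Among genes of the TGFβ family and its targets, the clearest values were those of the ID genes. Both cytokines were given together, so no change here is assigned to TGFβ alone. Of 24 TGFβ feedback inhibitors and SMAD target genes, ID3 passed and the median was 0.02. In this list 2 genes were at least 2-fold higher (ID3 and ID2), beside 1.11% of all genes. ID2 was at 10.78 and 10.90 in controls and at 11.89 and 11.96 in treated monolayers, a log2 change of 1.08 (limma adjusted p = 0.1), and a further member of the family, ID4, which is not in the list, was at 8.61 and 7.95 in controls and at 11.31 and 11.02 in treated monolayers (2.88, adjusted p = 0.118). ID1 was already bright, with a log2 change of 0.57 (limma adjusted p = 0.552). The genes of this family thus lay higher in both treated arrays in every case, although on these probe sets ID3 alone passed. A second probe set of ID2 passed with 0.99 (limma adjusted p = 0.0313). BMP2, a ligand that signals through SMAD1 and SMAD5 and controls ID genes in many cells, was at 6.58 and 6.83 in controls and at 8.52 and 8.40 in treated monolayers (log2 fold change 1.75, limma adjusted p = 0.131). It was the single gene of 25 ligands, receptors and SMADs at least 2-fold higher, and none of them passed (median −0.065).

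SMAD7, the inhibitory SMAD, was at 5.60 and 5.83 in controls and at 6.39 and 6.65 in treated monolayers (log2 fold change 0.81, limma adjusted p = 0.355). PMEPA1, another inhibitor of the receptor signal, had a log2 change of 0.76 (limma adjusted p = 0.417), TGFBI, a matrix protein named for its induction, 0.60 (0.374) and SMAD3 0.55 (0.465). For these 4 genes both treated arrays lay above both control arrays. SKIL, a SMAD corepressor, had overlapping groups with a value of −0.06 that took the other sign without 1 array, and CCN2, a matrix-associated growth regulator, stood at 7.56 and 7.98 in controls and at 6.57 and 7.26 in treated monolayers (−0.86, limma adjusted p = 0.92). INHBA, the activin A subunit, was near background on all 4 monolayer arrays.

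The promoter of ID3 is shown because ID3 passed in the list of SMAD targets on the probe set that represents it. The SMAD box CAGAC is short and was present in 38% of all promoters. Counted by gene, 44.1% of the genes measured on the arrays and 10 of 21 matched feedback and target genes held it. The stretch lies at chr1:23559624-23559743 on the minus strand.
ID3: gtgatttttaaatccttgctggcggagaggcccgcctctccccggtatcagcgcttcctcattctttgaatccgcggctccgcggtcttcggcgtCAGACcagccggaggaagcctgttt
The capitals mark 1 match. An AP-1 motif, TGANTCA, was found in 6.57% of all promoters and in 7.07% of the genes measured on the arrays. It was in 1 of 15 matched genes that rose, 5 of 13 that fell, 23 of 161 at least 2-fold higher and 7 of 116 at least 2-fold lower. These shares are descriptions.

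Interferon-stimulated genes formed the list with the largest median of those shown, 1.09 on the log2 scale beside 0 over all genes. None of the 24 measured members passed the test, and 12 were at least 2-fold higher, beside 1.11% of all genes. Without overlap, 17 were higher and none lower. Among all genes above background 19.9% were higher without overlap and 25.0% lower. IFIT3, which takes part in the antiviral IFIT complex, was at 8.43 and 7.72 in controls and at 11.02 and 9.75 in treated monolayers, a log2 change of 2.31 (standard error 0.51, limma adjusted p = 0.297). IFIT2 was at 7.44 and 7.36 in controls and at 8.83 and 8.44 in treated monolayers (log2 fold change 1.24, limma adjusted p = 0.128). IFIT1 had 8.89 and 7.82 in controls against 10.77 and 9.28 in treated monolayers, and ISG15, a ubiquitin-like modifier, 9.02 and 7.87 against 10.91 and 9.04. For ISG15, control array 1 and treated array 2 were almost level.

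Array 1 lay above array 2 in both groups for 18 of 24 members, with a median gap of 0.27 in controls and 0.80 in treated monolayers. Over all genes above background that held for 3600 of 12642. IFI6, for example, was at 6.49 and 6.24 in controls and at 10.39 and 7.51 in treated monolayers, and IFI27 at 6.36 and 3.90 in controls and at 9.41 and 6.66. MX1, the antiviral GTPase, was at 3.20 and 2.83 in controls and at 5.83 and 3.79 in treated monolayers. The number of members at least 2-fold higher was 6 without treated array 1, 15 without treated array 2, 10 without control array 2 and 12 without control array 1. CXCL10, CXCL11 and IRF7 were near background throughout.

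**Figure D3:**
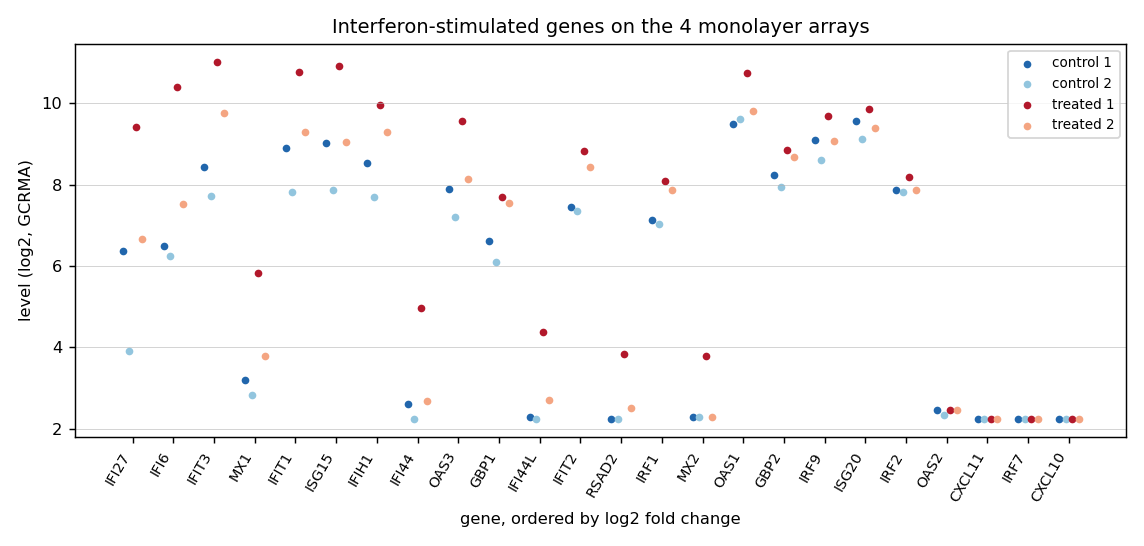
Level (log2) of the 24 measured interferon-stimulated genes on each of the 4 monolayer arrays, ordered by log2 fold change. Blue points are control arrays and red or orange points treated arrays. Treated array 1 (dark red) is the highest point for most members, and the last genes on the right, such as CXCL10 and IRF7, sit at or next to the lowest value on every array.

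The ISRE core GAAANNGAA was searched in the same promoters after these values had been seen. It was present in 6.88% of all promoters, in 7.68% of the genes measured on the arrays and in 14 of 18 matched interferon-stimulated genes. It was also present in 7 of 12 matched genes of antigen presentation, in 28 of 161 genes at least 2-fold higher and in 16 of 116 at least 2-fold lower. Since lists of this kind hold genes known for the element, the count describes the list and not the response. The stretches lie at chr10:89392430-89392549, chr10:89327785-89327904 and chr1:1013305-1013424, all on the plus strand, and capitals mark the motif on either strand.
IFIT1: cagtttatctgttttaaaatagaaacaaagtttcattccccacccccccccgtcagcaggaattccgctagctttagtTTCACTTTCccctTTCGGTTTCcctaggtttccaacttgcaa
IFIT3: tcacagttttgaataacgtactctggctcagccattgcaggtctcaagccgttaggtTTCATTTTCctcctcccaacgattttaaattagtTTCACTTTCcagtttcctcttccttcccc
ISG15: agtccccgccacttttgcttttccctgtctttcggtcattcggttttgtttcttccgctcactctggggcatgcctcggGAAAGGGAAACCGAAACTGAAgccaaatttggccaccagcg
In IFIT1 and IFIT3 2 separate matches are seen, and in ISG15 3 matches overlap in 1 block.

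Antigen presentation genes lay on the higher side as a list. All 14 measured members had positive log2 fold changes, 10 without overlap between groups, with a median of 0.71, and none passed. Over all genes above background 19.9% were higher without overlap, and over all genes 1.11% were at least 2-fold higher without overlap. PSMB9, a catalytic subunit of the immunoproteasome, was at 4.38 and 4.34 in controls and at 8.12 and 7.24 in treated monolayers, a log2 change of 3.32 (standard error 0.35, limma adjusted p = 0.101). The peptide transporter TAP1 was at 7.91 and 8.18 in controls and at 9.32 and 8.90 in treated monolayers (1.07, limma adjusted p = 0.195), and the peptidase ERAP1 had 1.04 (0.345). The 3 members at least 2-fold higher became 1 without treated array 1 and 7 without treated array 2. Of the complement proteases, which cleave the first components of that cascade, C1S was at 12.15 and 11.81 in controls and at 13.67 and 13.43 in treated monolayers (1.57, limma adjusted p = 0.0905), and C1R had a log2 change of 1.41 (0.202).

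**Figure D4:**
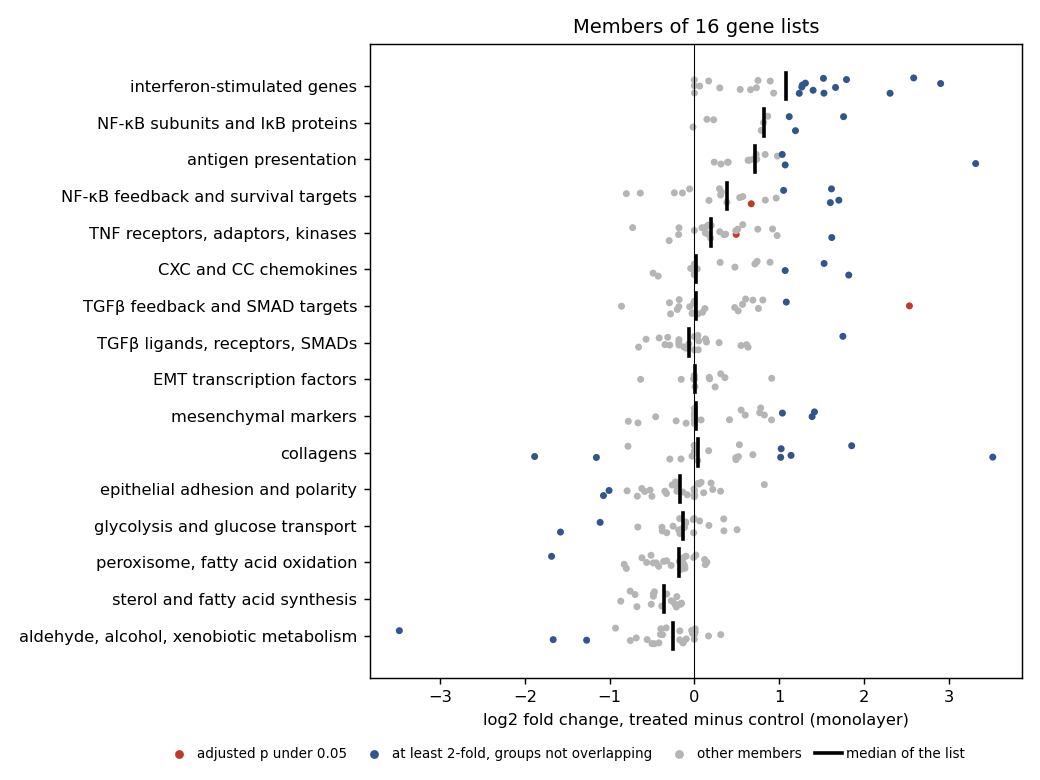
Log2 fold change (treated minus control) of the measured members of 16 gene lists, 1 point per gene. Red points passed the limma test, blue points were at least 2-fold apart without overlap, and black lines mark the median of each list. The medians run from 1.09 for interferon-stimulated genes to −0.36 for sterol and fatty acid synthesis, and those of the EMT transcription factors and the mesenchymal markers lie at 0.01 and 0.02.

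None of the EMT transcription factors or of the epithelial and mesenchymal markers passed. Of 13 EMT factors, none was 2-fold apart, and the median was 0.01. SNAI2 was at 2.46 and 2.53 in controls and at 2.45 and 2.52 in treated monolayers, and SNAI1 and ZEB2 were close to background as well. ZEB1 was at 8.37 and 8.56 in controls and at 8.71 and 8.84 in treated monolayers (log2 fold change 0.31, limma adjusted p = 0.365), and TWIST1 had 0.91 (0.37). CDH1, the E-cadherin of epithelial junctions, was at 12.94 and 12.95 in controls and at 12.98 and 12.995 in treated monolayers, a value of 0.04 (standard error 0.11, limma adjusted p = 1). VIM, the mesenchymal intermediate filament, had 0.08, FN1, fibronectin, −0.22, and CDH2, N-cadherin, 0.83 (limma adjusted p = 1, 0.85 and 0.901). EPCAM and KRT8 had −0.79 and −0.67 (limma adjusted p = 0.856 and 0.392).

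Of 28 epithelial adhesion and polarity genes 13 were lower without overlap and 5 higher (median −0.17). Over all genes above background 25.0% were lower without overlap and 19.9% higher. In the list 2 were at least 2-fold lower, beside 0.738% of all genes, namely the claudin CLDN7 (−1.07) and the desmosomal PKP2 (−1.01). That count was 0 after quantile normalization and without control array 1. Of 11 keratins, KRT19 and KRT15 were at least 2-fold lower. KRT19, a keratin of simple epithelia, was at 8.18 and 8.52 in controls and at 6.95 and 6.79 in treated monolayers (−1.48, limma adjusted p = 0.102). Of 23 mesenchymal markers, 10 were higher and 4 lower without overlap. CDH11, a cadherin of mesenchymal cells, was at 11.53 and 11.14 in controls and at 12.38 and 12.37 in treated monolayers (1.04, limma adjusted p = 0.418), and FBN1, a microfibril protein, had 1.39 (0.196).

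Matrix genes had values in both directions. None of 23 collagens passed, 5 were at least 2-fold higher and 2 at least 2-fold lower (median 0.04). Over all genes those shares were 1.11% and 0.738%. COL8A1, a short-chain collagen, was at 7.14 and 6.70 in controls and at 10.78 and 10.10 in treated monolayers, a log2 change of 3.52 (standard error 0.37, limma adjusted p = 0.101). The basement membrane chains COL4A1 and COL4A2 each had 1.02 (limma adjusted p = 0.459 and 0.42), whereas COL4A3 and COL4A4, which form a different type IV network, had −1.88 and −1.16 (0.399 and 0.33). COL22A1 and COL5A1 had values of 1.86 and 1.14 (limma adjusted p = 0.308 and 0.726), and COL1A1 one of −0.03 that took the other sign after quantile normalization. Of 25 matrix metalloproteinases and TIMPs none passed. MMP1 and MMP9 were close to background in every monolayer, and MMP10 was at 4.996 on treated array 1 but at 2.71 on treated array 2, with controls at 2.62 and 2.29. PLAU, the urokinase gene, had a log2 change of 0.87 (limma adjusted p = 0.221).

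The genes with the largest differences that did not pass were named after their values were seen. On the higher side S100A8, a calcium-binding alarmin, was at 3.36 and 2.25 in controls and at 8.92 and 6.27 in treated monolayers, a log2 change of 4.80 (standard error 0.98, limma adjusted p = 0.266). HSD11B1, which regenerates active glucocorticoid from cortisone, was at 4.94 and 4.24 in controls and at 9.02 and 7.93 in treated monolayers (3.88, limma adjusted p = 0.109). CLEC4E, a pattern recognition lectin, was at 6.76 and 6.26 in controls and at 10.37 and 9.80 in treated monolayers (3.57, limma adjusted p = 0.0562). The arrays of a group lay far apart for S100A8 in particular, but the groups of these 3 genes did not overlap. ECM2 and CHI3L2 had log2 changes of 3.87 and 3.59 (limma adjusted p = 0.0847 and 0.216), PLA1A, a phospholipase, 3.14 (0.29), RFTN1 2.86 (0.261), IGFBP7, a secreted growth factor binding protein, 2.78 (0.337) and EFNA1, an ephrin ligand, 1.64 (0.0938).

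On the lower side ADH1C, an alcohol dehydrogenase, was at 7.83 and 5.79 in controls and at 3.31 and 3.35 in treated monolayers (log2 fold change −3.48, limma adjusted p = 0.268). FCGBP, a mucus protein, was at 11.46 and 10.83 in controls and at 8.07 and 7.60 in treated monolayers (−3.32, limma adjusted p = 0.111). VIL1, the villin of microvilli, was at 9.28 and 8.65 in controls and at 6.76 and 5.63 in treated monolayers (−2.77, limma adjusted p = 0.264), and another probe set of VIL1 passed with −1.43 (adjusted p = 0.00693). SMIM31, near background in treated monolayers, was at least 8.02-fold lower (limma adjusted p = 0.0613), TM4SF5 had −2.72 (0.0613), C9orf152 −2.55 (0.102) and PDZK1, a scaffold of apical transporters, −2.39 (0.185). THUMPD3-AS1, PACSIN1, SLITRK6 and SLC5A11 had −2.32, −2.29, −2.26 and −2.20 (limma adjusted p = 0.155, 0.149, 0.18 and 0.149). Of the 20 surfactant, mucin and secretory genes, AQP3, MUC5AC and MUC5B were at least 2-fold lower (−1.42, −1.28 and −1.30). LAMP3 was at least 2-fold higher (1.09). Over all genes 0.738% were at least 2-fold lower without overlap and 1.11% higher. AQP3, a water and glycerol channel, was at 14.04 and 14.05 in controls and at 12.90 and 12.36 in treated monolayers (limma adjusted p = 0.131).

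Several metabolic lists had more members lower than higher without overlap. FASN, HMGCS1 and SQLE were picked out after their values were seen. All 18 measured genes of sterol and fatty acid synthesis had negative log2 fold changes, from −0.87 for FASN, the fatty acid synthase, to −0.15 for HMGCS1, and 13 were lower without overlap and none higher, beside 25.0% and 19.9% of genes above background. The median was −0.36, none passed and none reached 2-fold. Array 2 lay above array 1 for most members, with a median of −0.18 for array 1 minus array 2 in controls and −0.29 in treated monolayers. SQLE, squalene epoxidase, was at 12.13 and 12.32 in controls and at 11.28 and 11.77 in treated monolayers (log2 fold change −0.70, limma adjusted p = 0.384). Of 25 peroxisome and fatty acid oxidation genes 16 were lower without overlap and 1 higher (median −0.18), led by HAO1, a peroxisomal oxidase, at 6.88 and 6.30 in controls and 4.90 and 4.91 in treated monolayers (−1.68, limma adjusted p = 0.134). Of 28 aldehyde, alcohol and xenobiotic enzymes 16 were lower and 2 higher without overlap (median −0.25). At least 2-fold lower were ADH1C, given above, SELENBP1 and FMO5 (−1.67 and −1.27, limma adjusted p = 0.153 and 0.62). Over all genes 0.738% were at least 2-fold lower without overlap.

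Of 22 glycolysis and glucose transport genes 12 were lower without overlap and none higher (median −0.13). Over all genes above background 25.0% were lower without overlap and 19.9% higher. HK2, hexokinase 2, was at 3.54 and 4.12 in controls and near background at 2.25 and 2.25 in treated monolayers, at least 2.63-fold lower (limma adjusted p = 0.151). SLC2A1, the basal glucose transporter, was at 8.41 and 8.62 in controls and at 7.21 and 7.59 in treated monolayers (log2 fold change −1.11, limma adjusted p = 0.233). Of 19 hypoxia response genes 10 were higher and 1 lower without overlap (median 0.35). The 33 cell cycle and replication genes had a median of 0.06, with none called and none at least 2-fold apart without overlap, and the 13 ribosomal protein genes one of 0.02.

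The monolayer response was then set against that of spheroids treated in the same way, with the difference between both log2 fold changes as an interaction term in limma. The difference was called for 645 of 19775 genes (3.26%), of which 384 had the higher value in monolayers. Of the 39 genes called in monolayers, 24 were also called in spheroids, 23 of them in the same direction, and over all genes 16.4% were called in spheroids. Both comparisons share the estimate of spread, and a small spread of a gene favours a call in each. For 25 of the 39 the difference itself was called. PDE3A fell in monolayers and was near background in both spheroid groups (fitted difference −2.38, adjusted p = 0.000749 in limma). LINC00488, CALCB and POM121L9P were near background in spheroids as well, with fitted differences of 2.25, 1.53 and 1.75 (limma adjusted p = 0.00177, 0.00114 and 0.00715). PDGFRL rose in monolayers and had a log2 change of −0.10 in spheroids (difference 1.16, limma adjusted p = 0.0133). CA8 and ID3 had spheroid values of 4.82 and 1.64, and their differences were not called (limma adjusted p = 0.605 and 0.154).

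The 6 genes with the most negative called differences had low values in both monolayer groups. MMP10 had a fitted difference of −9.50 that was not called (limma adjusted p = 0.052). MMP1, interstitial collagenase, was at 2.56 and 2.52 in control and 2.75 and 2.58 in treated monolayers, and its log2 fold change was 0.13 against 8.82 in spheroids (difference −8.70, limma adjusted p = 0.00539). LCE3D and INHBA were near background in both monolayer groups and in control spheroids, so their sizes are bounds alone, with at least 828-fold and at least 225-fold higher values in treated than in control spheroids (limma adjusted p of the difference 0.0152 and 0.0157). MMP9, GAL and PPP1R14C, with low values in monolayers and control spheroids, had fitted differences of −8.09, −7.86 and −7.32 (limma adjusted p = 0.0111, 0.00842 and 0.00723). No order is read from these sizes. SNAI2 and ZEB1 had differences of −4.07 and −1.08 (limma adjusted p = 0.0453 and 0.0323). ZEB2, near background in both control groups, was at least 16.3-fold higher in treated spheroids (limma adjusted p of the difference 0.014). JUN, an AP-1 subunit, and PLAU had −2.38 and −2.55 (0.0205 and 0.0233). In the opposite direction, SLC51B, FGA, KCNE3, SMIM2-AS1, DEPTOR and TMC5 fell in spheroids and did not pass in monolayers, with differences from 4.40 for SLC51B to 3.24 for TMC5 (limma adjusted p up to 0.0344). FGA, the fibrinogen α chain, had −0.30 in monolayers and −4.02 in spheroids.

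A few genes had opposite signs in both cultures. IFIT2 had 1.24 in monolayers and −1.41 in spheroids, and it was the single interferon-stimulated gene of 24 with a called difference (2.65, limma adjusted p = 0.0217). IFIT1 had 1.67 and −3.73 (difference 5.40, limma adjusted p = 0.0812). The median of the interferon list was 1.09 in monolayers and 0 in spheroids, where 11 members were higher and 11 lower, while the NF-κB subunits and IκB proteins had medians of 0.82 and 1.55. HK2 had −1.58 in monolayers and 1.14 in spheroids (fitted difference −2.72 with treated monolayers near background, limma adjusted p = 0.0403), SLC2A1 −1.11 and 1.38 (−2.49, 0.0407), SQLE −0.70 and 1.61 (−2.31, 0.0376) and C1S 1.57 and −0.27 (1.84, 0.0421). The EMT factors had medians of 0.01 and 0.97, with 4 of 13 differences called, all on the spheroid side, beside 3.26% over all genes. Differences between responses rest on the 8 arrays alone, and without 3D treated replicate 1 or 2 they were called for 2262 or 1737 genes.

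**Figure D5:**
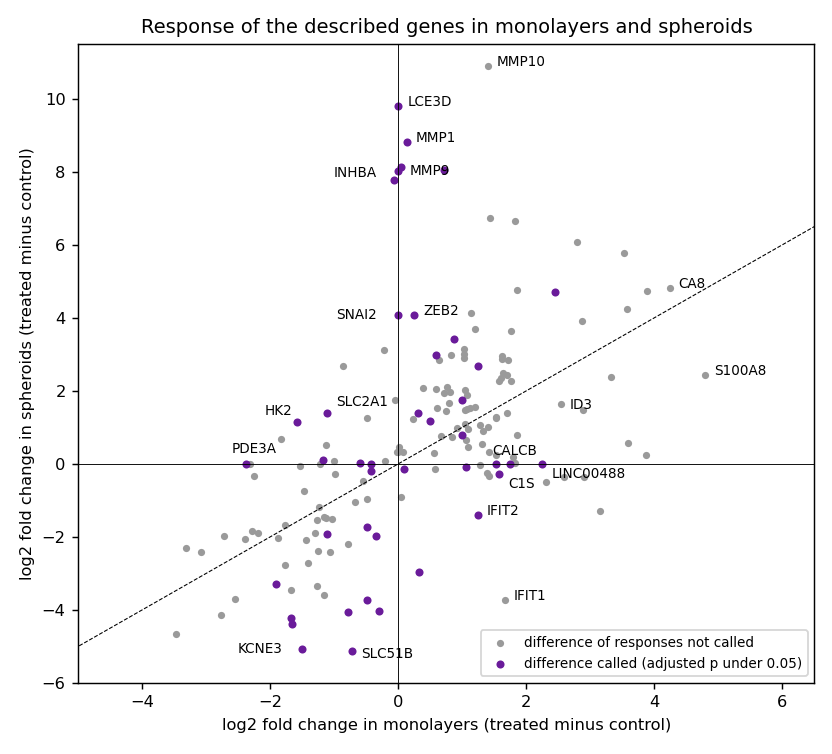
Log2 fold change (treated minus control) in spheroids (vertical axis) against that in monolayers (horizontal axis) for the 166 genes chosen by the rules given under processing. Purple points are genes whose difference between both responses was called by limma, and the dashed line marks equal values. MMP1, INHBA and LCE3D lie at or next to the vertical line at 0 with fitted spheroid values of 8.01 to 9.81, which for INHBA and LCE3D rest on groups near background, and IFIT1 and IFIT2 lie right of 0 and below it.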

How the data were processed

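RNA of A549 cultures was measured on 8 Affymetrix U133 plus 2.0 arrays, 2 per group. Whether the arrays of a group came from separate cultures is unclear, as said above. The deposited values are log2 intensities that the authors made with GCRMA (background correction, quantile normalization and summary by probe set), and limma 3.6.9 is named in the submitters' processing notes. Depth does not apply to arrays, and 2 arrays a group limit the precision.

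Of 54675 probe sets, 62 Affymetrix controls were left out. Of the 54613 tested, 41091 name 1 gene, 1801 several and 11721 none in the reference table used here. Group means of the log2 values were estimated on all 8 arrays with lmFit and eBayes (limma 3.58.1, R 4.3.3) with 4 residual and 0.347 prior degrees of freedom, and p-values were adjusted by Benjamini-Hochberg over 54613 probe sets at 0.05. The monolayer and spheroid comparisons share no arrays but share the estimate of spread. Tables and figures used Python 3.11.15, pandas 2.3.3 and matplotlib 3.10.9. Where a group was near background, a fold is given as at least the ratio to the array medians.

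Named genes were the 12 largest and 12 smallest changes among called genes above background, up to 4 called members of each list, a list given in every case and the 6 largest and 6 smallest called differences between responses. After values were seen, 88 genes were added, namely the 12 largest and 12 smallest log2 fold changes among genes at least 2-fold apart without overlap, and list members that met that rule. The members, the 47 lists (837 of 909 genes measured) and the rules were chosen with earlier results of these data known. The ISRE motif and the count of 2-fold genes without overlap were also chosen after seeing the data.

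The fit was tested on simulated data for the monolayer comparison (10 draws, 54613 probe sets). Changes of 1 log2 unit were recovered in 19.6% of cases and those of 2 in 47.8%. Wrong calls made up 57 of 731 (7.8%). Alternatives were other scalings, a filter on dim probe sets, other priors, an ordinary t statistic, other probe set rules, the replicate block, the monolayer arrays alone and each array left out.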

Additional observations from a re-analysis of the deposited data

Results flagged for a closer look

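For 42 of the 166 genes chosen by the rules under processing the response in monolayers differed from that in spheroids by the interaction term of limma (adjusted p under 0.05). Each value that follows is the monolayer log2 fold change minus the spheroid log2 fold change, as fitted. For 9 of them (CALCB, HAO1, HK2, INHBA, LCE3D, LINC00488, PDE3A, POM121L9P and ZEB2) at least 1 group was near background, so the fitted value does not give the size of the difference and no order is read from it. MMP1, MMP9, GAL, PPP1R14C and SNAI2 had low values in both monolayer groups, so no order is read from theirs either. Values below 0 were those of LCE3D −9.81, MMP1 −8.70, MMP9 −8.09, INHBA −8.01, GAL −7.86 and PPP1R14C −7.32, and, closer to 0, those of SNAI2 −4.07, ZEB2 −3.83, HK2 −2.72, PLAU −2.55, SLC2A1 −2.49, JUN −2.38, PDE3A −2.38 and BMAL2 −2.26. Smaller values below 0 were DSE −1.43, KRT15 −1.27, ZEB1 −1.08, BTG3 −0.75, TNFRSF10B −0.69, PLEKHG2 −0.63, UBA1 −0.43 and EZR −0.23. Values above 0 were SLC51B 4.40, FGA 3.73, KCNE3 3.58, SMIM2-AS1 3.28, DEPTOR 3.27, TMC5 3.24, SELENBP1 2.72, IFIT2 2.65 and HAO1 2.53, and further LINC00488 2.25, C1S 1.84, POM121L9P 1.75, ERBB3 1.62, CALCB 1.53, MRAP2 1.40, MUC13 1.23, PDGFRL 1.16, ASRGL1 0.80, PTGES3 0.24 and STK17A 0.21.

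The signs of both responses were opposite with each past 1 on the log2 scale for HK2 (−1.58 in monolayers and 1.14 in spheroids), SLC2A1 (−1.11 and 1.38) and IFIT2 (1.24 and −1.41). With 2 arrays a group, single arrays that stand apart within a group could not be tested. SQLE, picked out after its values were seen, had a difference of −2.31.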

How the results depend on the processing

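The numbers of genes that rose, that fell and whose response differed from that in spheroids were 24, 15 and 645. They became 116, 89 and 1656 with array medians subtracted, 124, 108 and 2114 without dim probe sets, 11, 6 and 380 with a fold of at least 2 added, and 7, 7 and 226 with the replicate block, that is the array number as a block. With the monolayer arrays alone 3 rose and 3 fell, and with the replicate block on those arrays 0 and 0, in limma. An ordinary t statistic gave 12 rises and 310 differences, and adjustment over 1 probe set per gene 1083 differences. With each array left out in turn the counts ran from 8 to 363, from 6 to 286 and from 557 to 2262. The highest came without 2D treated replicate 2, 2D control replicate 2 and 3D treated replicate 1, respectively, and the lowest without a 3D control array for rises and falls and without 2D treated replicate 1 for differences. Array numbers were not taken to pair the samples, since no label says what they share. The deviations of same-numbered arrays correlated at 0.285 between the monolayer groups and at −0.015 to 0.091 between other groups (27554 probe sets). A shift that same-numbered monolayer arrays share would count as spread in the p-values without the replicate block. The number at least 2-fold lower without overlap was 146 and became 247 with the probe set of largest change.

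Of the 27 calls named here, 7 were kept with the replicate block, 18 after quantile normalization, 17 with a robust prior and 0 with the monolayer arrays alone. Single values near 0 changed sign. COL1A1 was at 0.24 with the probe set of largest change and 0.0124 after quantile normalization, ICAM1 at 0.0061 with medians subtracted and 0.0645 after quantile normalization, and SNAI2 at 0.0025 and 0.0157. With each array left out, COL1A1 ran from −0.16 to 0.11, GAL from −0.20 to 0.05, MMP9 from −0.10 to 0.17, SKIL from −0.25 to 0.14, SMIM2-AS1 from −0.0053 to 0.66 and SNAI2 from −0.0466 to 0.0271. The cause of these shifts was not tested. On the monolayer arrays 20737 probe sets had the same value on all 4 arrays, and for these no difference was detectable. Of the 39 genes called, 7 had at least 1 group near background.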
